A study of Mus musculus with 9 samples.

Results

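The CXC and CX3C chemokine ligands were followed in 9 spinal cord libraries of C57BL/6 mice as 9 named genes out of 27179 in the deposited count table. The genes were Cxcl1, Cxcl2, Cxcl9, Cxcl10, Cxcl12, Cxcl13, Cxcl14, Cxcl16 and Cx3cl1. Each was found through its Entrez identifier, and 8 of the 9 held enough reads to be tested. Cxcl2 did not, and is given by its counts. The libraries formed 3 groups of 3 biological replicates. Mice of the first had experimental autoimmune encephalomyelitis (EAE, an autoimmune mouse model of multiple sclerosis) and were given oral EHP-101, known here by its code name, at a dose of 20 mg/kg (called EAE+EHP-101, or treated). Mice of the next group had EAE without it, and the last were Control mice. How EAE was induced, whether EAE and Control mice received a vehicle, the age and sex of the mice and the day of sampling were not given in the sources used here. Poly-A RNA of cord tissue was sequenced.

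Chemokines are small secreted proteins that steer migrating cells through G protein-coupled receptors, and their names give the spacing of the first conserved cysteines. Cxcl9 and Cxcl10 are induced by interferons and bind Cxcr3 on activated T cells, Cxcl13 binds Cxcr5 on B cells and follicular helper T cells, and Cxcl16 binds Cxcr6. Cxcl1 and Cxcl2 carry the glutamate-leucine-arginine motif of ligands that draw neutrophils through Cxcr2. Cxcl12 acts through Cxcr4 and keeps cells in place in many tissues, and Cx3cl1 (fractalkine) is made by neurons in the central nervous system, where its receptor Cx3cr1 marks microglia. Cxcl16 and Cx3cl1 are made as membrane proteins and are released when proteases cut them.

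Libraries held 30448507 to 32661741 counts. Levels are given as normalised CPM (counts scaled to the library total, with TMM factors) and compared between genes per kilobase of exon. A gene was called when its adjusted p in edgeR's quasi-likelihood test (Benjamini-Hochberg over 16749 genes) was under 0.05. Treated replicate 1 stood apart from treated replicates 2 and 3 in several of these genes, so the main values that rest on it are also given without it. Since that library was singled out by these same values, its removal also narrows the spread. An adjusted p without it can fall while the fold change shrinks, and is a description. In bulk tissue fewer cells of a type and less RNA per cell cannot be told apart. Markers of cord cells were abundant in every library, with 6 oligodendrocyte genes summing to 27975 CPM or more and 7 neuronal genes to 5313 CPM or more. Skeletal muscle RNA was marked by 6 genes, whose sum was highest in Control replicate 1 at 28.9 CPM and at most 3.04 CPM in any other library.

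Cxcl9, Cxcl10, Cxcl13, Cxcl16, Cxcl1 and Cxcl14 rose in EAE against Control, and Cxcl12 fell. These were 6 rises and 1 fall among 8 tested members, where 20.2% of all genes tested rose and 16.7% fell, 37.0% in all. Cxcl1 and Cxcl13, both highest in EAE, held enough reads for testing only with the EAE libraries included. When a CPM of at least 1 in 3 libraries was required Cxcl1 was not tested, and 5 members rose. Libraries of the groups did not overlap for the 6 that rose, and for 0 members in the lower direction (25.6% and 21.1% of all genes). The median log2 fold change of the 8 was 2.83, against 0.01 over all genes. Between treated and EAE mice 1 of the 8 was called, Cxcl16, which was lower in treated mice. Of all genes 4.81% were lower and 0.430% higher in that comparison, 5.24% in all. Libraries did not overlap, with the treated ones lower, for Cxcl1, Cxcl9, Cxcl14 and Cxcl16, 4 of 8 members (16.9% of all genes), and for 0 members with the treated ones higher (10.7%). For Cxcl1 only the scaling set them apart, since treated replicate 3 and EAE replicate 2 each had 13 counts. Against Control, treated mice had 4 of the 8 higher (Cxcl9, Cxcl10, Cxcl13 and Cxcl16) and 0 lower, with 9.96% of all genes higher and 9.82% lower, 19.8% in all. Libraries did not overlap for 3 of these, Cxcl9, Cxcl10 and Cxcl16, and for 0 members in the lower direction (19.0% and 17.5% of all genes). In a fit of treated and Control mice alone Cxcl13 held too few reads for testing, and 3 members were higher. The count of members lower against Control in treated mice was 2 without Control replicate 3, where Cxcl12 and Cx3cl1 had adjusted p = 0.0153 and 0.0290. Without treated replicate 1, 3.23% of all genes were lower and 0.165% higher in treated against EAE mice. Against Control 10.1% were then higher and 9.86% lower in treated mice, and 19.1% rose in EAE. Counts of called genes in the lists below stand beside these shares over all genes. The 3 comparisons share libraries, so they are given side by side and not as independent evidence.

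**Figure D1:**
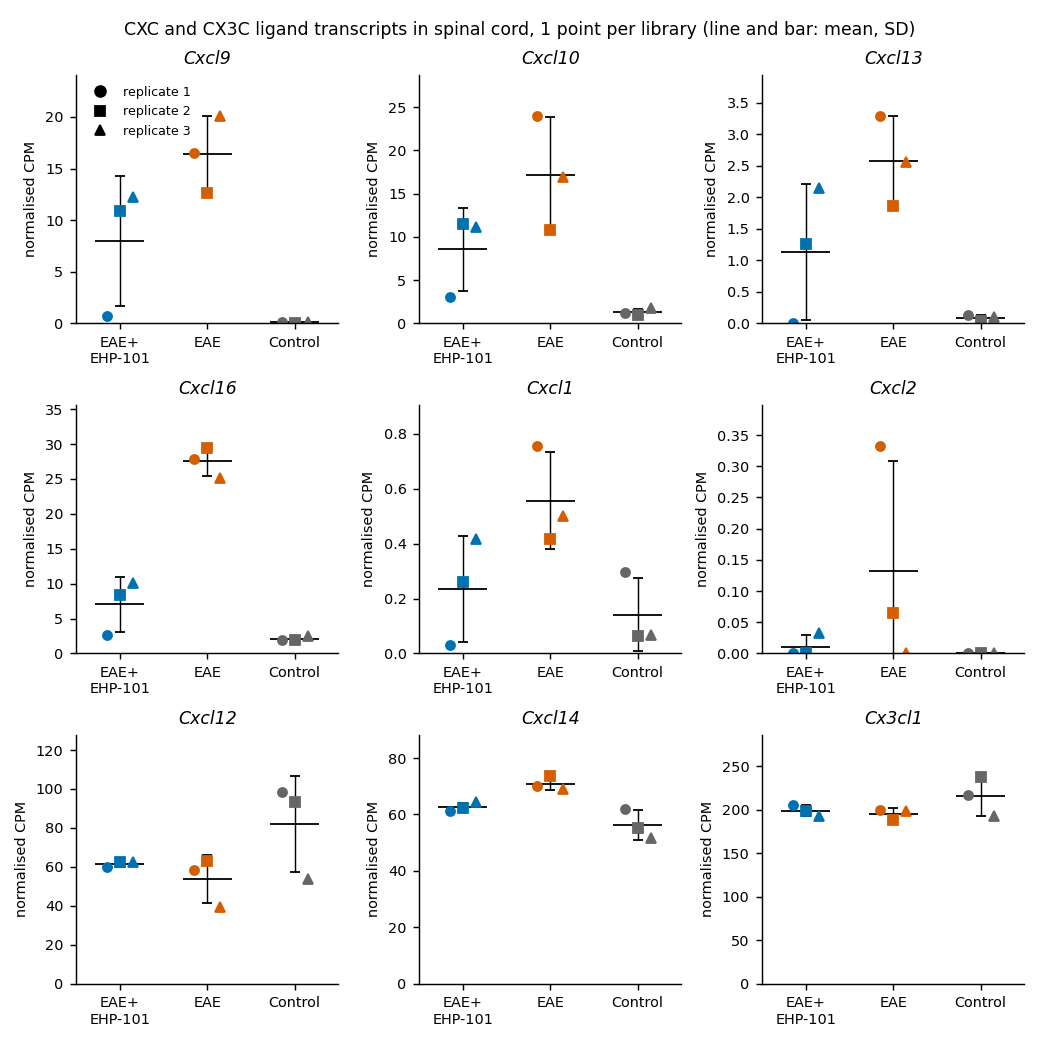
Normalised CPM (y axis, from 0, a scale for each gene) of the 9 ligands in EAE+EHP-101, EAE and Control mice, with 1 point per library, a line at the mean and a bar of 1 SD (n = 3). Treated replicate 1 lay at 0.704 CPM for Cxcl9 and 2.65 CPM for Cxcl16, while the other treated libraries lay at 10.9 CPM or more and 8.38 CPM or more.

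**Figure D2:**
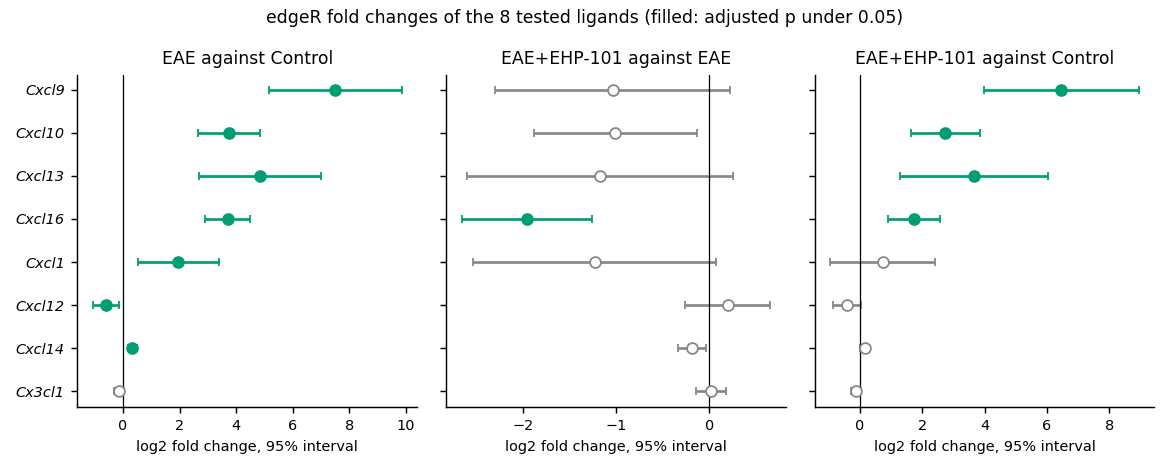
Log2 fold changes (x axis) with 95% intervals of the 8 tested ligands in the 3 comparisons, as fitted by edgeR over 9 libraries. Filled points passed an adjusted p of 0.05, which Cxcl16 did in each of the 3 comparisons and Cx3cl1 in 0 of them.

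Cxcl9 and Cxcl10 lie beside each other on chromosome 5, at chr5:92321331-92328079 and chr5:92346638-92348889 in mm10, both on the minus strand and separated by 18.6 kb. Cxcl10 lies within the span of Art3 on the other strand and shares no exon base with it. The 250 bases before each transcript start (RefSeq, GRCm38.p6) are shown because each of these neighbours was the gene closest to the other over the 9 libraries. Capitals mark matches, on either strand, to GAAA and GAAA with any 2 bases between them (the core of an interferon-stimulated response element, ISRE) or to GGG and CC with any 5 bases between them (a loose NF-kB pattern).
Cxcl9 (chr5:92328080-92328329, minus strand): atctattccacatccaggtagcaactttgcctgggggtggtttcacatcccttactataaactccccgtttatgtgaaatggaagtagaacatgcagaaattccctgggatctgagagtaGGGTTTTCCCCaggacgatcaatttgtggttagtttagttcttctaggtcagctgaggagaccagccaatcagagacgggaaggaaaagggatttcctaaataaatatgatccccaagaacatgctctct
Cxcl10 (chr5:92348890-92349139, minus strand): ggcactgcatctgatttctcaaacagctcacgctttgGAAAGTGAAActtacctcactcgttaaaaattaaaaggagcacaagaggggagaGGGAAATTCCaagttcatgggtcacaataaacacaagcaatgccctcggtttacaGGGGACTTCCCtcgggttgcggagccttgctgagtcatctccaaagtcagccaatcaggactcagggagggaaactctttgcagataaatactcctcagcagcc
The Cxcl10 sequence held GAAAGTGAAA at positions -213 to -204 from the start and NF-kB matches at -159 to -150 and at -104 to -94, the last from overlapping matches. The Cxcl9 sequence held an NF-kB match at -130 to -120 from overlapping matches and no match to the ISRE core. Neither held TTC and GAA with any 3 bases between them, the gamma-activated sequence. Of 32851 mouse promoters of this length, 2.98% held the ISRE core, 45.8% the NF-kB pattern and 7.02% the gamma-activated sequence. A match is a run of letters and not a measured binding site.

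Cxcl9 had 0.704, 10.9 and 12.3 CPM in treated replicates 1, 2 and 3, against 16.5, 12.6 and 20.0 CPM in EAE and 0.131, 0 and 0.131 CPM in Control. All 3 EAE libraries stood above all treated libraries, and all treated libraries above all Controls. Cxcl9 rose 181-fold in EAE against Control (log2 7.50, SE 1.07, adjusted p = 0.000403) and was 88.1-fold higher in treated than in Control mice (log2 6.46, SE 1.14, adjusted p = 0.00633). Without treated replicate 1 the treated mice were at log2 6.997 against Control (adjusted p = 1.40e-06). The 2 values over all libraries were log2 6.89 and 5.86 without Control replicate 2, the library with 0 counts. Between treated and EAE mice Cxcl9 was not called (log2 -1.04, 95% interval -2.30 to 0.22, adjusted p = 0.426), nor without treated replicate 1 (log2 -0.49, adjusted p = 0.338).

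Cxcl10 had 3.04, 11.5 and 11.1 CPM in treated libraries, 24.0, 10.8 and 16.9 CPM in EAE and 1.18, 0.918 and 1.74 CPM in Control. EAE replicate 2 lay below treated replicates 2 and 3, so treated and EAE libraries overlapped, and both stood above every Control. Cxcl10 rose 13.5-fold in EAE (log2 3.75, SE 0.50, adjusted p = 0.000264) and was 6.68-fold higher in treated than in Control mice (log2 2.74, SE 0.51, adjusted p = 0.00735), or log2 3.14 without treated replicate 1 (adjusted p = 0.000171). Between treated and EAE mice it had log2 -1.01 (95% interval -1.89 to -0.13, adjusted p = 0.225), and log2 -0.60 without treated replicate 1 (adjusted p = 0.402). Per kilobase, Cxcl9 stood at 0.0878 to 0.418 of Cxcl10 in treated libraries, 0.260 to 0.451 in EAE and 0 to 0.0421 in Control. The treated library at 0.0878 was replicate 1.

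Their receptor Cxcr3, carried by activated T cells, had 1, 13 and 16 counts in treated libraries, 35, 32 and 36 in EAE and 2, 0 and 1 in Control. The count ratio of EAE to Control was 32.97, and counting error alone gave it an exact 95% range of 11.0 to 163. Cxcr3 held enough reads for testing only with the EAE libraries included, so its treated against Control value is a description. It rose in EAE (log2 4.88, SE 0.75, adjusted p = 0.000620) and was higher in treated than in Control mice (log2 3.16, SE 0.93, adjusted p = 0.0357), at log2 3.69 without treated replicate 1 (adjusted p = 0.00201). It was not called between treated and EAE mice (log2 -1.72, 95% interval -2.81 to -0.63, adjusted p = 0.0774), nor without treated replicate 1 (log2 -1.18, adjusted p = 0.0992). The 8 T cell markers (Cd3e and Cd4 among them) were all higher in EAE than in Control and 3 were lower in treated than in EAE mice. Their summed level was 4.41 to 12.5 CPM in treated libraries, lowest in replicate 1, 17.7 to 22.7 CPM in EAE and 3.68 to 4.03 CPM in Control. None of the 8 was at 0 in all libraries, and their part in the Cxcl9, Cxcl10 and Cxcr3 results was not tested.

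The 12 genes listed for interferon signalling joined the interferon gamma axis with the type I interferon genes Ifnb1, Ifnar1 and Ifnar2. Of these 12 genes 10 were tested and 7 rose in EAE, with a median log2 fold change of 0.84. The transcription factor genes Irf1 (log2 1.91, SE 0.25) and Irf8 (log2 2.71, SE 0.25) were among them. In treated against EAE mice 5 of the 10 fell. Irf1 had log2 -0.93 (SE 0.24, adjusted p = 0.0447) and Irf8 log2 -1.45 (SE 0.23, adjusted p = 0.00438). Ifng itself, the cytokine, was too low to test, with 0, 3 and 3 counts in treated libraries, 6, 3 and 3 in EAE and 0 in each Control. Irf1 and Irf8 were also called in treated against EAE mice without treated replicate 1, at adjusted p = 0.0114 and 0.000480. Of the 10 genes 4 fell without that library. Against Control 3 of the 10 were higher in treated mice, and 5 without that library.

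Cxcl13 (chr5:95956939-95961068, plus strand) organises B cell follicles. It had 0, 39 and 67 counts in treated libraries, 109, 58 and 82 in EAE and 4, 1 and 3 in Control, which is 0, 1.26 and 2.15 CPM, then 3.29, 1.86 and 2.56 CPM, then 0.131, 0.0316 and 0.0983 CPM. Treated replicate 1 was at 0, which allows up to 0.0959 CPM, and treated replicates 2 and 3 stood above every Control. Cxcl13 rose 28.5-fold in EAE (log2 4.83, SE 0.98, adjusted p = 0.00303). It held enough reads for testing only with the EAE libraries included, so its treated against Control value is a description. In treated against Control mice it was 12.6-fold higher (log2 3.65, SE 1.08, adjusted p = 0.0370), at log2 4.23 without treated replicate 1 (adjusted p = 0.000314). That call ended without any 1 of Control replicates 1, 2 or 3, EAE replicate 1 or treated replicates 2 or 3 (adjusted p = 0.0522 to 0.148), and the value was log2 2.80 without treated replicate 3. Between treated and EAE mice it was not called (log2 -1.18, 95% interval -2.61 to 0.26, adjusted p = 0.427), nor without treated replicate 1 (log2 -0.59, adjusted p = 0.526).

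Its receptor Cxcr5 had 7, 10 and 13 counts in treated libraries, 7, 11 and 3 in EAE and 6, 4 and 10 in Control. The 3 groups overlapped, and Cxcr5 was not called in any of the 3 comparisons (EAE against Control log2 0.01, 95% interval -1.14 to 1.16, adjusted p = 0.988). Ms4a1, which encodes the B cell antigen CD20, had 0, 3 and 1 counts in treated libraries, 2, 2 and 3 in EAE and 2, 2 and 0 in Control. Of 6 B cell markers 2 were tested, and both rose in EAE. These were Cd79b and Cd22, and Cd22 is also found on microglia. The 6 summed to 1.06 to 3.43 CPM in treated libraries, 9.01 to 12.01 CPM in EAE and 0.688 to 1.25 CPM in Control, and their part in the Cxcl13 result was not tested. Of the 9 genes listed for lymphoid tissue organisation 6 were tested, and 4 rose in EAE. Among them was Ltb, a subunit of membrane lymphotoxin, with 4, 36 and 47 counts in treated libraries, 85, 86 and 73 in EAE and 4, 17 and 10 in Control (EAE against Control log2 2.91, SE 0.59, adjusted p = 0.00299). Its receptor gene Ltbr rose by log2 0.94 (SE 0.10) and fell in treated against EAE mice by 0.43 on the log2 scale (adjusted p = 0.0203). The last call ended without treated replicate 1 (adjusted p = 0.0803). Ccl19 and Ccl21a, the chemokines of the T cell zone, had 0 counts in all libraries, and reads of Ccl21a may be split among its near-identical copies.

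Cxcl16 (chr11:70454234-70459984, minus strand) encodes a membrane-bound chemokine that is also a scavenger receptor, and it was the member called lower in treated than in EAE mice. It had 2.65, 8.38 and 10.1 CPM in treated libraries, 27.9, 29.5 and 25.2 CPM in EAE and 1.97, 1.87 and 2.49 CPM in Control. The 3 groups did not overlap, and treated replicate 1 lay just above the highest Control. Cxcl16 rose 13.04-fold in EAE (log2 3.71, SE 0.37, adjusted p = 5.23e-05). In treated against EAE mice it fell 3.90-fold (log2 -1.97, SE 0.32, 95% interval -2.66 to -1.27, adjusted p = 0.00506). Without treated replicate 1 the fall was 2.97-fold (log2 -1.57, adjusted p = 0.000186), and the call held with each of the 9 libraries left out in turn (adjusted p up to 0.0266). Treated mice were 3.34-fold above Control (log2 1.74, SE 0.38, adjusted p = 0.0127), at log2 2.13 without treated replicate 1 (adjusted p = 1.02e-05). The last call ended without Control replicate 2, treated replicate 2 or treated replicate 3 (adjusted p = 0.0501, 0.0624 and 0.0541).

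Cxcl16 shares 363 exon bases with Zmynd15 on the other strand, and the strand setting of the counting was not given. Zmynd15 had 0.640 to 1.70 CPM in treated libraries, 1.81 to 3.23 CPM in EAE and 0.197 to 0.985 CPM in Control. The ratio of Cxcl16 to Cxcl10 was chosen after their values were seen and is a description. Per kilobase, Cxcl16 stood at 0.393, 0.328 and 0.410 of Cxcl10 in treated libraries, at 0.524, 1.23 and 0.672 in EAE and at 0.750, 0.915 and 0.645 in Control. All 3 treated libraries, replicate 1 included, lay below the other 6.

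The genes closest to Cxcl16 over the 9 libraries were Ctss (Pearson r = 0.998), which encodes the lysosomal protease cathepsin S, Fcer1g (0.997), a signalling chain of Fc receptors, and Ctsc (0.997), which encodes cathepsin C. These are descriptions over 9 libraries that differ by group. The 8 microglial markers had 6 higher in EAE than in Control and 5 lower in treated than in EAE mice, and the 8 monocyte and macrophage markers 4 and 3. The microglial sum was 336 to 443 CPM in treated libraries, 600.4 to 813 CPM in EAE and 287.5 to 363 CPM in Control. The monocyte and macrophage sum was 32.2 to 76.5 CPM in treated libraries, 399 to 563 CPM in EAE and 12.9 to 20.0 CPM in Control. Lyz2, which encodes lysozyme, made up most of that sum, with 22.5, 45.1 and 63.4 CPM in treated libraries, 377, 542 and 391 CPM in EAE and 9.36, 8.16 and 10.5 CPM in Control. Other members did not all follow it, and Ly6c2, Mrc1 and Cd163 were not called in any of the 3 comparisons. No marker of either list was at 0 in all libraries, and their part in the Cxcl16 result was not tested.

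Cxcr6, the receptor of Cxcl16 on T cell subsets, had 5, 36 and 56 counts in treated libraries, 105, 131 and 116 in EAE and 4, 6 and 1 in Control. Like Cxcr3, it held enough reads for testing only with the EAE libraries included, so its treated against Control value is a description. It rose 29.9-fold in EAE (log2 4.90, SE 0.67, adjusted p = 0.000325) and was 8.50-fold higher in treated than in Control mice (adjusted p = 0.0196). Between treated and EAE mice it had log2 -1.81 (95% interval -2.87 to -0.76, adjusted p = 0.0541). Without treated replicate 1 it passed with a smaller fall (log2 -1.30, adjusted p = 0.0253). Of 6 genes listed as proteases that cut chemokines, 3 rose in EAE. These were the sheddase gene Adam17 (log2 0.39, SE 0.11, adjusted p = 0.0161), Mmp2 (log2 0.87, SE 0.11) and Mmp12, the macrophage metalloelastase (log2 5.18, SE 0.64). Mmp2 and Mmp12 fell in treated against EAE mice (log2 -0.64 and -3.56, adjusted p = 0.00574 and 0.00364), while Adam17 was not called (log2 -0.28, 95% interval -0.51 to -0.04, adjusted p = 0.214). Adam10, the constitutive sheddase, was not called in treated against EAE mice either (log2 -0.09, 95% interval -0.24 to 0.05, adjusted p = 0.559).

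**Figure D3:**
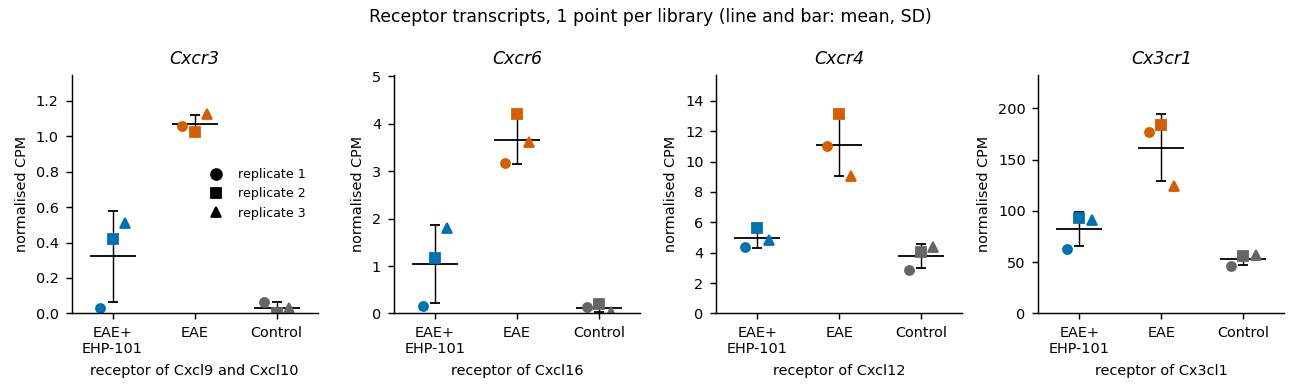
Normalised CPM (y axis, from 0) of the receptor transcripts Cxcr3, Cxcr6, Cxcr4 and Cx3cr1 in EAE+EHP-101, EAE and Control mice, with 1 point per library, a line at the mean and a bar of 1 SD (n = 3). Cxcr4 and Cx3cr1 were lower in treated than in EAE mice, and treated replicate 1 held 1 count of Cxcr3 and 5 of Cxcr6.

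Cxcl1 (chr5:90891245-90893121) and Cxcl2 (chr5:90903899-90905938) lie 10.8 kb apart on the plus strand of chromosome 5. Their upstream sequences are shown because both genes were scarce while their promoters share a run of letters, GGGAATTTCCC, within the capitals that mark the NF-kB pattern.
Cxcl1 (chr5:90890995-90891244, plus strand): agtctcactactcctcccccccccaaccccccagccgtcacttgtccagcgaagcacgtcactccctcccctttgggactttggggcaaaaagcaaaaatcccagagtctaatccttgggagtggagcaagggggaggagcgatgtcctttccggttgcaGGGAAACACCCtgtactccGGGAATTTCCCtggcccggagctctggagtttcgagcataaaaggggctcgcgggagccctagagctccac
Cxcl2 (chr5:90903649-90903898, plus strand): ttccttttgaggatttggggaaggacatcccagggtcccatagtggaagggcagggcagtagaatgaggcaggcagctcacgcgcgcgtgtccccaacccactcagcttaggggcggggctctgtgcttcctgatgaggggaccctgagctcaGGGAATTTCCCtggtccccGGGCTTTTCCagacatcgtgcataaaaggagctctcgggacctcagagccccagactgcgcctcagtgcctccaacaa
The part GGGAATTTCCC lies at -71 to -61 in Cxcl1 and at -97 to -87 in Cxcl2. It was cut from the shared run so as to begin with GGG and end with CC. It was searched for on both strands after it was seen in both, and 14 of 32851 promoters hold it.

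Cxcl1 had 1, 8 and 13 counts in treated libraries, 25, 13 and 16 in EAE and 9, 2 and 2 in Control. In CPM all 3 EAE libraries stood above every other library, by a narrow margin: treated replicate 3 had 0.4163 CPM and EAE replicate 2 had 0.4165 CPM. Cxcl1 was 3.89-fold higher in EAE than in Control (log2 1.96, SE 0.66, adjusted p = 0.0362). Of the 54 counts in EAE and 13 in Control, the ratio was 3.99, and counting error alone gave it an exact 95% range of 2.15 to 7.97. The call ended without any 1 of Control replicates 2 or 3, EAE replicates 1, 2 or 3, or treated replicate 2 (adjusted p = 0.0551 to 0.134), and the value was log2 3.01 without Control replicate 1. Between treated and EAE mice it was not called (log2 -1.23, 95% interval -2.54 to 0.07, adjusted p = 0.345), nor between treated and Control mice (log2 0.73, 95% interval -0.95 to 2.40, adjusted p = 0.537). Without treated replicate 1 these values were log2 -0.72 (adjusted p = 0.689) and log2 1.24 (adjusted p = 0.189).

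Cxcl2 had 0, 0 and 1 count in treated libraries, 11, 2 and 0 in EAE and 0 in each Control. Of its 13 counts in EAE, EAE replicate 1 held 11. Set against 3 counts over the Control group, the limit that 0 allows, the summed EAE counts of Cxcl2 were 4.16-fold higher, which rests on that library. Counting error alone gave the ratio of EAE to Control an exact 95% lower limit of 2.93. When no filter on low counts was used edgeR gave adjusted p = 0.0601 for EAE against Control. Cxcl3, the next ligand of this kind, had 0, 1 and 2 counts in treated libraries, 8, 0 and 3 in EAE and 0 in each Control, and EAE replicate 1 again held most of them.

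Of 7 other CXC ligands of the mouse, Cxcl5 and Pf4 were tested and neither was called in any comparison. Cxcl5, which also draws neutrophils, had log2 0.16 in EAE against Control (95% interval -0.33 to 0.65, adjusted p = 0.639). The receptor Cxcr2 had 13, 3 and 4 counts in treated libraries, 12, 5 and 2 in EAE and 3, 1 and 1 in Control, and Cxcr1 had 0 in all. The 8 neutrophil markers summed to 38.4 to 65.2 CPM in treated libraries, 36.0 to 59.2 CPM in EAE and 12.3 to 20.0 CPM in Control, and replicate 1 was the highest of the treated. Of these markers 6 were tested, 1 of them higher in EAE than in Control (3 without treated replicate 1) and 5 higher in treated than in Control mice. In treated against EAE mice 1 of the 6 was lower and 0 higher, with a median log2 fold change of 0.98, so the sum joins genes of opposite sign. Csf3r, the receptor gene for granulocyte colony-stimulating factor, fell (log2 -1.02, adjusted p = 0.0209) and had 10.9, 20.0 and 22.4 CPM in treated libraries, 38.3, 41.5 and 28.2 CPM in EAE and 9.66, 8.32 and 7.67 CPM in Control. S100a9, which encodes a calprotectin subunit, was not called there (log2 1.12, adjusted p = 0.303) and had 29.5, 9.18 and 10.4 CPM in treated libraries, 9.81, 8.71 and 4.09 CPM in EAE and 2.33, 2.02 and 6.75 CPM in Control. Ly6g, a defining neutrophil marker too low to test, had 9, 4 and 3 counts in treated libraries, 1, 3 and 0 in EAE and 0, 0 and 1 in Control. The part of these cells in the Cxcl1 and Cxcl2 values was not tested.

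The 14 genes listed for the interleukin-17, interleukin-1, tumour necrosis factor and NF-kB axis, which induces Cxcl1 and Cxcl2 in many cells, had 13 tested. All 13 rose in EAE (20.2% of all genes), with a median log2 fold change of 1.01, and 8 fell in treated against EAE mice (4.81% of all genes). When treated replicate 1 was left out 6 of the 13 fell (3.23% of all genes). Il1b had 0.480, 0.550 and 1.121 CPM in treated libraries, 5.10, 2.08 and 2.40 CPM in EAE and 0.131, 0.0316 and 0.229 CPM in Control. The 3 groups of Il1b did not overlap, and it fell in treated against EAE mice (log2 -2.15, SE 0.43, adjusted p = 0.0136). Tnf (log2 -2.55, SE 0.49, adjusted p = 0.0110), Nfkb2 (log2 -0.79, SE 0.14, adjusted p = 0.00705) and Tnfaip3, an inhibitor of NF-kB signalling (log2 -0.98, SE 0.16, adjusted p = 0.00470), fell as well. Il17a had 1 count in EAE replicate 1 and 0 elsewhere.

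Cxcl12 (chr6:117168535-117181368, plus strand) had 59.9, 62.4 and 62.5 CPM in treated libraries, 58.6, 62.8 and 39.5 CPM in EAE and 98.4, 93.6 and 53.6 CPM in Control. Control replicate 3 lay within the EAE range, and the treated libraries lay close together. Cxcl12 was 1.53-fold lower in EAE than in Control (log2 -0.61, SE 0.21, adjusted p = 0.0387). The call ended without any 1 of Control replicates 1 or 2, EAE replicates 1 or 3, or treated replicate 2 (adjusted p = 0.0523 to 0.118). It also ended once the dependence of counts on gene length was taken out (log2 -0.38, adjusted p = 0.214). Without Control replicate 3 the value was log2 -0.87 (adjusted p = 0.00148). Treated mice were not called against EAE (log2 0.20, 95% interval -0.26 to 0.66, adjusted p = 0.700) or against Control (log2 -0.41, 95% interval -0.86 to 0.04, adjusted p = 0.183).

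The genes closest to Cxcl12 over the 9 libraries were Foxq1 (Pearson r = 0.963), Edn1 (0.959), which encodes endothelin, and Eng (0.956), which encodes the endothelial co-receptor endoglin. Of 8 endothelial markers 7 were lower in EAE than in Control, 0 were called in treated against EAE mice (1 higher without treated replicate 1) and 0 in treated against Control mice. They summed to 223, 241 and 257 CPM in treated libraries, 199, 191 and 149.5 CPM in EAE and 338, 308 and 227 CPM in Control. EAE replicate 3 and Control replicate 3 were the lowest of their groups in this sum, as they were for Cxcl12. No endothelial marker was at 0 in all libraries, and the part of endothelial RNA in the Cxcl12 result was not tested.

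**Figure D4:**
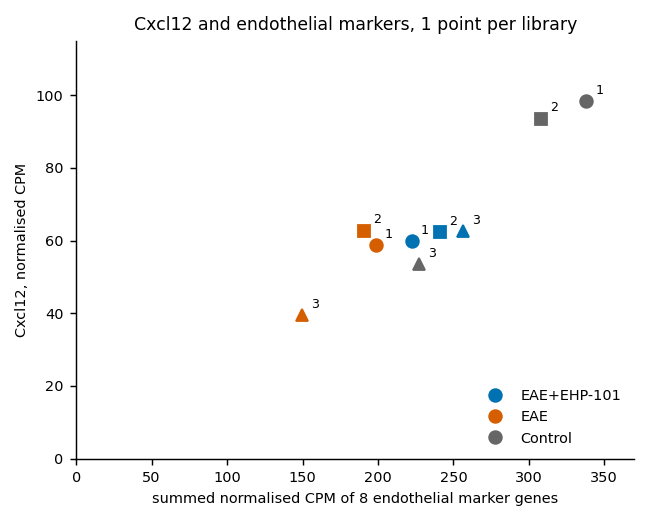
Normalised CPM of Cxcl12 (y axis) against the summed normalised CPM of 8 endothelial marker genes (x axis), with 1 point per library, coloured by group and numbered by replicate. Control replicates 1 and 2 lie at the upper right with 338 and 308 CPM of markers, and EAE replicate 3 lies lowest on both axes.

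Cxcr4, the signalling receptor of Cxcl12 on leukocytes and progenitors, had 4.35, 5.63 and 4.84 CPM in treated libraries, 11.0, 13.1 and 9.08 CPM in EAE and 2.89, 4.05 and 4.36 CPM in Control. EAE libraries stood above all others, and treated and Control libraries overlapped by a narrow margin. Cxcr4 rose 2.94-fold in EAE (log2 1.55, SE 0.18, adjusted p = 0.000121) and fell 2.24-fold in treated against EAE mice (log2 -1.16, SE 0.17, adjusted p = 0.00367). Ackr3, which takes up and removes Cxcl12, had log2 0.25 in EAE against Control (95% interval 0.01 to 0.49, adjusted p = 0.0910). Per kilobase, Cxcl12 stood at 2.81 to 3.49 times Cxcr4 in treated libraries, 1.10 to 1.34 times in EAE and 3.11 to 8.63 times in Control.

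Cxcl14 (chr13:56288643-56296551, minus strand), a ligand found in many healthy tissues whose receptor is less settled, had 61.3, 62.1 and 64.3 CPM in treated libraries, 70.2, 73.5 and 69.2 CPM in EAE and 61.9, 55.3 and 51.6 CPM in Control. All EAE libraries stood above all others. Cxcl14 rose 1.26-fold in EAE (log2 0.33, SE 0.07, adjusted p = 0.00322), and the call held with each library left out in turn (adjusted p up to 0.0268). Between treated and EAE mice it had log2 -0.18 (95% interval -0.33 to -0.03, adjusted p = 0.198). Its 250 upstream bases held 1 match to the ISRE core at -172 to -163 and 1 to the gamma-activated sequence at -191 to -183, and Cxcl10 was the other member with a match to the ISRE core among the 8 with a promoter sequence.

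Cx3cl1 (chr8:94772180-94782427, plus strand), fractalkine, was the most abundant member per kilobase in every group. It had 205, 199 and 192 CPM in treated libraries, 200.3, 188 and 199 CPM in EAE and 218, 237 and 192 CPM in Control. The 3 groups overlapped. It was not called in EAE against Control (log2 -0.14, 95% interval -0.31 to 0.02, adjusted p = 0.157) or in treated against EAE mice (log2 0.02, 95% interval -0.14 to 0.19, adjusted p = 0.914). It was lower in EAE without Control replicate 3, at log2 -0.25 (adjusted p = 0.00699). Its receptor Cx3cr1 had 63.2, 92.7 and 90.8 CPM in treated libraries, 177, 184 and 124 CPM in EAE and 46.5, 56.1 and 56.6 CPM in Control. The 3 groups of Cx3cr1 did not overlap, and it was 3.04-fold higher in EAE than in Control and 1.96-fold lower in treated than in EAE mice (adjusted p = 6.95e-05 and 0.00637). Per kilobase, Cx3cl1 stood at 2.51 to 3.85 times Cx3cr1 in treated libraries, 1.21 to 1.90 times in EAE and 4.03 to 5.55 times in Control.

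The level of each ligand per kilobase set the make-up of the 9 as a pool. Cx3cl1 came first and Cxcl14 second in each group, with no overlap between them or with the next. In treated mice Cx3cl1 had 63.2 ± 2.005 CPM per kb, Cxcl14 34.2 ± 0.859 and Cxcl12 8.61 ± 0.205 (SD, n = 3). In EAE these 3 had 62.2 ± 2.18, 38.8 ± 1.23 and 7.49 ± 1.73 CPM per kb, and in Control 68.6 ± 7.19, 30.8 ± 2.88 and 11.4 ± 3.44 CPM per kb. In EAE Cxcl10 came next at 15.6 ± 6.01 CPM per kb and Cxcl16 after it at 11.2 ± 0.884, and libraries of these neighbours overlapped. In treated mice the libraries of Cxcl12, Cxcl10, Cxcl16, Cxcl9 and Cxcl13 each overlapped with those of the next in order, which for Cxcl13 was Cxcl1, and Cxcl1 stood apart from Cxcl2. In Control Cxcl10 and Cxcl16 were at 1.16 ± 0.380 and 0.862 ± 0.136 CPM per kb, and Cxcl1, Cxcl13 and Cxcl9 at 0.148 or less on average.

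Cxcl9, Cxcl10, Cxcl13 and Cxcl16 together made up 3.67%, 14.97% and 16.1% of the pool in treated libraries, 27.2%, 20.3% and 24.5% in EAE and 1.71%, 1.35% and 2.73% in Control. Treated replicate 1 stood nearer the Controls and treated replicates 2 and 3 nearer EAE. Cx3cl1, Cxcl12 and Cxcl14 made up the rest but for less than 1% in each library. The summed level of the 9 was 121 ± 8.19 CPM per kb in treated mice, 144 ± 8.29 in EAE and 113 ± 11.7 in Control.

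**Figure D5:**
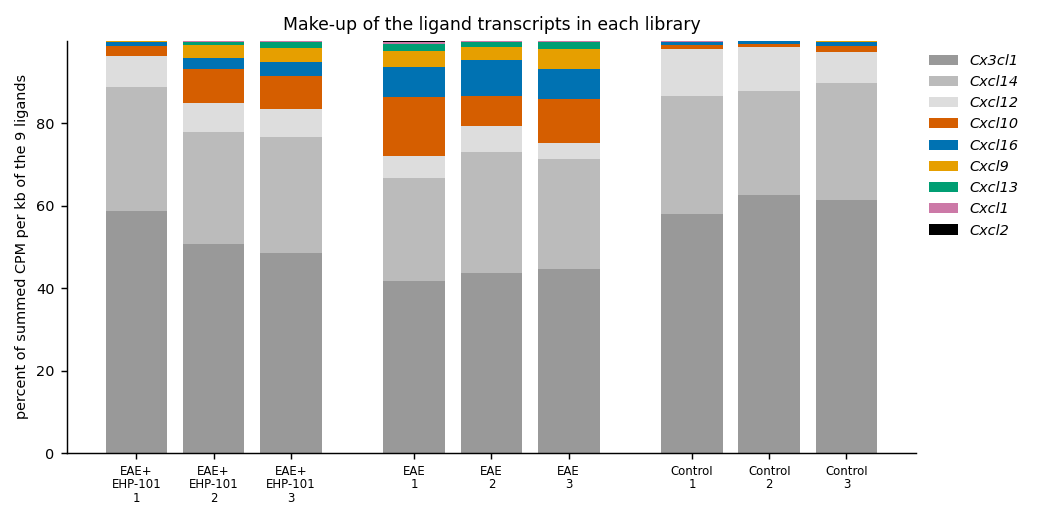
Share of each ligand in the summed CPM per kb of the 9 (y axis, percent) in each library, for EAE+EHP-101, EAE and Control replicates 1 to 3. Grey shades are Cx3cl1, Cxcl14 and Cxcl12, which hold 72.1% to 79.4% of the pool in EAE and 97.2% to 98.6% in Control.

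Among coding genes averaging a log2 CPM of at least 1, Cxcl9 and Cxcl10 were nearest to each other (Pearson r = 0.984 over 9 libraries). Next for Cxcl9 were H2-Aa, a class II antigen presentation gene (0.984), and Eef1d (0.982). Cxcl10 was next closest to Ifit3 (0.981), an interferon-induced antiviral gene, and to the immunoproteasome gene Psmb10 (0.980). Cxcl13 was closest to the interferon-induced GTPase genes Gbp5 (0.989), Irgm2 (0.983) and Gbp7 (0.979). In treated replicate 1 Gbp5 had 118 counts, against 338 and 506 in treated replicates 2 and 3, 616, 518 and 521 in EAE and 153, 134 and 131 in Control. Cxcl14 was closest to Dpp7 (0.995), a lysosomal dipeptidase gene, and Cx3cl1 to Rai1 (0.962). Cxcl1 was closest to Sec14l1 (0.954) and Rsad2 (0.953), at so few counts that these values carry little.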

How the data were processed

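Spinal cord RNA was poly-A selected and sequenced from a stranded kit as single-end reads, per the labels' protocols. The authors deposited raw read counts per Entrez gene, with exon length and coordinates, per the file headers. Per the submitters' processing notes the tools were HISAT2 2.1.0, featureCounts 1.6.1, Trimmomatic 0.36 and DESeq2 1.20.0, on mm10. The counting's strand setting and its treatment of multiply mapped reads were not given in the sources used here.

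RefSeq (GRCm38.p6) gave symbols for 25275 of 27179 identifiers and the 250 bases upstream of 8 of the 9 members. In edgeR 4.0.16 (R 4.3.3), filterByExpr left 16749 genes, which were scaled by TMM and fitted by quasi-likelihood with 1 mean per group over 9 libraries. SE was taken as the absolute log2 fold change over the root of F. The p-values measure the spread between biological replicates of 1 study. Among 16749 genes simulated for EAE and Control, the fit recovered 80.6% of 67 genes changed 2-fold and 70.8% of 65 changed 1.5-fold. It made 10 false calls. For treated and EAE mice the fit recovered 85% of 60 genes changed 2-fold and 52.8% of 72 changed 1.5-fold, with 12 false calls. For treated and Control mice it recovered 82.8% of 58 and 48.5% of 66, with 13 false calls. No simulated library was set apart from its group as treated replicate 1 was. Alternatives were other scalings and filters, the DESeq2 1.42.0 Wald test, fits of 2 groups, the replicate number as a block, removal of the length trend, and each library left out. Ranges of count ratios cover counting error only, since reads carry no molecular identifiers. All 9 members are named. For each list at most 5 genes have values, taken from those with the smallest p and receptors of members. Il1b in treated against EAE mice, Hspg2, Gbp5, single cell type markers and the list genes too low to test were named after their values were seen. The 3 genes closest to a member had the highest Pearson r of log2 CPM among coding genes averaging a log2 CPM of at least 1. The members and lists were chosen with earlier results of these data known. Results for some listed genes are not reported here.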

Additional observations from a re-analysis of the deposited data

How the results depend on the processing

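Of 403 values of members under the alternatives, 372 kept their direction and their side of the threshold, 28 lost a call, 3 gained one and 0 changed direction. Cxcl9, Cxcl10, Cxcl13, Cxcl16 and Cxcl14 rose in EAE under all 17 alternatives, and the fall of Cxcl16 in treated against EAE mice held under all 17 (log2 -2.32 to -1.57). Members lower in EAE against Control were 0 in place of 1 with library totals, the DESeq2 Wald test, 2-group fits or the length trend removed, where Cxcl12 had adjusted p = 0.0502, 0.0603, 0.0549 and 0.214. With the length trend removed Cxcl1 in EAE (adjusted p = 0.0801) and Cxcl13 in treated against Control mice (log2 3.49, adjusted p = 0.0693) were also not called. Cxcl1 and Cxcl13 did not pass the filter in the 2-group fit of treated and Control mice, where 3 members were higher in place of 4. Cxcl1 also did not pass a filter of CPM of at least 1 in 3 libraries, where 5 members rose in EAE in place of 6. With 1 library left out the count of members lower ran from 0 to 2 in EAE and from 0 to 2 in treated against Control mice, and members higher in treated against Control mice ran from 2 to 4, with 2 left without Control replicate 2, treated replicate 2 or treated replicate 3. Over all genes the lower calls in EAE were 1707 with the length trend removed, and the higher calls in treated against EAE mice were 143 with the Wald test, 169 with 2 groups and 44 with the block. In treated against Control mice the higher calls were 1095 with the block and 760 with the length trend removed, the lower calls 790 with that trend removed, and library totals made 62.3% of calls higher in place of 50.4%. Higher calls ran from 2160 to 3399 in EAE with 1 library left out, where EAE replicate 2 gave the lowest. For treated against EAE mice they ran from 22 (without EAE replicate 2) to 249 (without Control replicate 3) with lower calls from 348 to 921, and for treated against Control mice from 237 (without treated replicate 2) to 1712 with lower calls from 392 to 2065. The replicate numbers did not pair the libraries, since same-numbered libraries correlated at -0.187 to 0.123 and 0 of 9 libraries were closest to their own number in both other groups. With the replicate block Cxcl1 in EAE (adjusted p = 0.0612) and Cxcl13 in treated against Control mice (adjusted p = 0.0664) were not called. The cause of these changes was not tested. Depth limits Cxcl2, Cxcl1 and Cxcr2, where 3 counts make 0.0906 to 0.0985 CPM.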

Other observations

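Glycosaminoglycan chains hold chemokines on cell surfaces. Of 9 genes listed for their core proteins and synthesis, 2 rose in EAE against Control, Sdc4 (log2 0.82, SE 0.10, adjusted p = 0.000188) and Sdc1 (log2 0.72, adjusted p = 0.0276), which encode syndecans. Of all genes tested 20.2% rose, so this count was near the share over all genes. Sdc4 had 116, 139 and 149 CPM in treated libraries, 174, 205 and 169 CPM in EAE and 94.6, 107 and 109 CPM in Control, with no overlap between the 3 groups. It fell in treated against EAE mice (log2 -0.44, SE 0.10, adjusted p = 0.0287), a call that ended without treated replicate 1 (adjusted p = 0.0994). Hspg2, which encodes the basement membrane proteoglycan perlecan, had 8.94 CPM in Control replicate 3, with 18.9 and 19.4 CPM in the other Controls. Cxcl12 was low in the same library.

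Ackr1, a chemokine scavenger of endothelium and red cells, was not called in any comparison, with 40.1 to 47.2 CPM in treated libraries, 37.7 to 43.2 CPM in EAE and 31.9 to 42.7 CPM in Control. The platelet chemokine gene Ppbp, too low to test, had 8, 1 and 10 counts in treated libraries, 2, 2 and 0 in EAE and 0, 0 and 21 in Control.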
